A study of Mus musculus with 5 samples.

Results

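The genes described here are 49 cell cycle genes, taken by symbol from a fixed list and read as raw unique molecular identifiers (UMIs, 1 per captured RNA molecule) in 4 droplet single-cell libraries of mouse kidney. They were 49 of 28692 gene identifiers in those files, and each was detected in every library. By their known peak of expression 19 were assigned to S phase, 27 to G2/M, and 3 (Stmn1, Hmgb2 and Cks1b) to no phase. The measured levels played no part in that choice, but the list was drawn up with earlier results of these data known.

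The study followed obstruction of the ureter on 1 side (unilateral ureteric obstruction, UUO), which stops the outflow of that kidney and can be undone. All mice were C57/BL6 and 8 weeks old, and each droplet library pooled 3 animals. The groups were sham surgery (day 0), day 2 of obstruction, day 7 of obstruction, and reversed obstruction, taken 7 days after release on experimental day 14. A Smart-seq2 sample (a method that reads full-length RNA from cells in wells) added 768 wells from all time points together. With 1 library per time point no difference between time points has a replicate check: no test was made, and every interval below is an exact 95% interval for counting error only.

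Cells copy their DNA in S phase and divide in mitosis after G2. Genes for the replication machinery are switched on by E2F transcription factors before and during S phase, whereas genes for mitosis are held back until G2 and are activated through CCAAT boxes and CHR elements (cell cycle genes homology regions). After kidney injury, tubule cells that survive can re-enter the cycle, and macrophages can multiply in place as well as arrive from the blood.

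Promoter sequences were looked up first, since these elements are known for S-phase and G2/M genes, although members were put into phases by their peak of expression. Of the 49 genes 42 had an entry in the RefSeq promoter table (build GRCm38.p6, from 250 bases before the start to 50 bases after it). Both strands were searched, and counts are by gene, where Mcm7, Uhrf1 and Prc1 had 2 starts each. An E2F motif (TTTGGCGC, TTTCCCGC, TTTGCCGC or TTTCGCGC) was present for 7 of 16 S-phase and 1 of 24 G2/M genes, against 2.61% of all 27025 genes. The CCAAT box (CCAAT) was present for 12 of 16 S-phase and 22 of 24 G2/M genes, against 41.1% of all. The CHR (TTTGAA or TTTAAA, the latter reading the same on both strands) was present in 9 of 16 and 21 of 24, against 30.6%. A match of this kind describes letters, not a bound factor. Below are the 250 bases before the start of 4 genes that recur in the results: a replication helicase subunit (Mcm6), a mitotic cyclin (Ccnb2), the G2/M gene whose promoter also held an E2F motif (Cdk1), and the G2/M gene whose level did not move with the others in proximal tubule (Cks2). Capitals mark the motifs on either strand, so that ATTGG is a CCAAT box on the other strand.
Mcm6, chr1:128359706-128359955, minus strand: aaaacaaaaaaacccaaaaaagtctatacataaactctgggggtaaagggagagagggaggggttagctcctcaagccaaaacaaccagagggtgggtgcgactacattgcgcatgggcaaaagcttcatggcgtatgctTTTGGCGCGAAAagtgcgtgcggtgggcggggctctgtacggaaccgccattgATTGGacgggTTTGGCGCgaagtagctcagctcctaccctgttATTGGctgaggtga
Ccnb2, chr9:70421555-70421804, minus strand: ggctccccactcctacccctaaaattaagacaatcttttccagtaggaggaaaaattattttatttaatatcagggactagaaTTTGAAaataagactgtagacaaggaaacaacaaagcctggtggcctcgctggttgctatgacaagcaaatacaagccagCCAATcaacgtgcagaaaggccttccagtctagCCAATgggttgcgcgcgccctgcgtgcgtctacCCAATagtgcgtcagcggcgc
Cdk1, chr10:69352913-69353162, minus strand: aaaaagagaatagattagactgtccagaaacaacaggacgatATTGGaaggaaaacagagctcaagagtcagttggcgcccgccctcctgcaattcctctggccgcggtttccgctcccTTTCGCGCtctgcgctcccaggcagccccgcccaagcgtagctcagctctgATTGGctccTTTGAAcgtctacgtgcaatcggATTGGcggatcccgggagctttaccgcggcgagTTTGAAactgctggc
Cks2, chr13:51644982-51645231, plus strand: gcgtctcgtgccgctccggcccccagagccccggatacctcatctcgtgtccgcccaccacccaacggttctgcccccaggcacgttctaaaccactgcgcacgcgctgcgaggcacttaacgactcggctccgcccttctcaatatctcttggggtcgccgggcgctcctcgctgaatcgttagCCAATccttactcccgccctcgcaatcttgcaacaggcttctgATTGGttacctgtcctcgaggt
The Mcm6 promoter held overlapping E2F motifs in 1 run and another E2F motif closer to the start. The Ccnb2 promoter held 3 CCAAT boxes and a CHR and no E2F motif, and Cdk1 held all 3 kinds. Cks2 held a CCAAT box on each strand, with neither of the other motifs in these 250 bases.

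The libraries held 2739 to 5938 deposited cells, of which 2160 to 4292 were kept, with medians of 2663 (sham) to 6546.5 (day 2) UMIs per kept cell. Mitochondrial RNA took a median 40.6% of UMIs in sham, 16.2% on day 2, 3.00% on day 7, then 14.0% in the reversed library, so depth and mitochondrial share moved with the time points. Pairs of libraries shared 16 to 39 cell barcodes. Cells were put into classes by marker gene scores, so a class is a range of scores and not a type, and 0.796% (proximal tubule) to 12.5% (neutrophil) of a class lay near the limit. Each class had its own markers, and no marker of another class, among its 10 leading genes, and none of the 49 cell cycle genes was among them. The classes were made with these markers, so the place of the markers is no independent check. Mononuclear phagocytes (macrophages, monocytes and dendritic cells) numbered 66, 531, 2298 and 611 in sham, day 2, day 7 and reversed libraries. Proximal tubule cells numbered 2996, 563, 158 and 1056, and neutrophils, blood cells that no longer divide and serve here as the background, 0, 24, 51 and 21. In neutrophils, phagocyte markers took a median 1.13% of UMIs on day 2, 2.36% on day 7 and 1.41% in the reversed library. The part of phagocyte RNA in the neutrophil values was not tested.

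In phagocytes the replication genes were low in sham and highest on day 2. Levels are UMIs of the gene per 1000000 UMIs of the class in that library (CPM) and are compared within a gene. 2810417H13Rik (named Pclaf in the GENCODE annotation, a partner of the PCNA clamp) was at 0 in sham, 212 CPM on day 2 (201 to 224), 71.6 on day 7 (67.5 to 75.8) and 51.8 in the reversed library (45.6 to 58.6). No pair of its 4 intervals overlapped, and day 2 was at least 16.9-fold above sham, taking 3 UMIs as the sham limit. Pcna, the sliding clamp of DNA polymerase, was at 41.8 CPM in sham (20 to 76.8), 151 on day 2 (141 to 161), 66.1 on day 7 (62.2 to 70.2), then 89.3 in the reversed library (81.1 to 98.1). Its reversed level lay above day 7 without overlap, the other way round from 2810417H13Rik. Rrm2, a subunit of the enzyme that makes deoxyribonucleotides, was at 0, 74.1, 20.5 and 18.8 CPM, and Tk1, a thymidine kinase, was at 0, 65.5, 19.7 and 18.8 CPM. For both genes day 2 was high, at least 5.91-fold and 5.23-fold above the sham limit, and day 7 was close to the reversed level.

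The 6 MCM helicase genes, whose products open the DNA helix, all had UMIs in sham. Mcm6 was at 29.2 CPM in sham (11.8 to 60.3), 85.5 on day 2 (78.3 to 93.3), 44.4 on day 7 (41.2 to 47.8), then 41.3 in the reversed library (35.7 to 47.4). Only its day 2 interval stood apart from the other 3. Gmnn, an inhibitor of a new round of replication, was at 4.18, 76.1, 44.6 and 35.5 CPM. Ccne2, a cyclin that acts at the entry to S phase, was at 0, 14.1, 5.80 and 2.27 CPM and had the lowest reversed level against day 7 of all S-phase genes. The histone gene Hist1h2ap was at 4.18, 199, 97.5 and 102 CPM. Histone genes have near-identical copies, so reads of Hist1h2ap and Hist1h2ae cannot be assigned with certainty.

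In the 66 sham phagocytes 20 of 27 G2/M members and 7 of 19 S-phase members had no UMI, and all were detected in the other libraries. Top2a, the topoisomerase that untangles chromosomes, was at 4.18 CPM in sham (1 UMI), 122 on day 2 (113 to 131), 78.5 on day 7 (74.3 to 83) and 54.7 in the reversed library (48.3 to 61.7). Its levels were lower at each time point after day 2, with no overlap between the obstructed and reversed libraries. Mki67, a coat protein of mitotic chromosomes, was at 0, 65.7, 44.5 and 40.4 CPM, where day 7 (41.3 to 47.8) and reversed (35.0 to 46.5) overlapped. Ccnb2, the cyclin B2 that partners the kinase CDK1, was at 0, 40.3, 23.7 and 16.9 CPM. Plk1, a mitotic kinase, was at 0, 22.0, 6.04 and 3.71 CPM, and Cenpf, a kinetochore protein, was at 0, 30.1, 26.0 and 15.7 CPM. Plk1 was low by day 7, whereas the Cenpf intervals of day 2 (25.8 to 34.8) and day 7 (23.6 to 28.6) overlapped. Birc5 (survivin, part of the complex that corrects chromosome attachment) was at 0, 121, 50.9 and 34.5 CPM, at least 9.66-fold above the sham limit on day 2.

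Of the 3 genes without a phase, Stmn1, a protein that destabilises microtubules, was at 29.2, 422, 184 and 128 CPM. Hmgb2, a chromatin protein, had 171, 540, 345 and 295 CPM and was the member with the most UMIs in sham phagocytes (41). Cks2, a small partner of CDK1 counted here with G2/M, was at 62.7 CPM in sham (35.1 to 103), 94.5 on day 2 (86.8 to 103), 52.1 on day 7 and 47.0 in the reversed library. Unlike Ccnb2 or Top2a, Cks2 had overlapping sham and day 2 intervals.

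**Figure D1:**
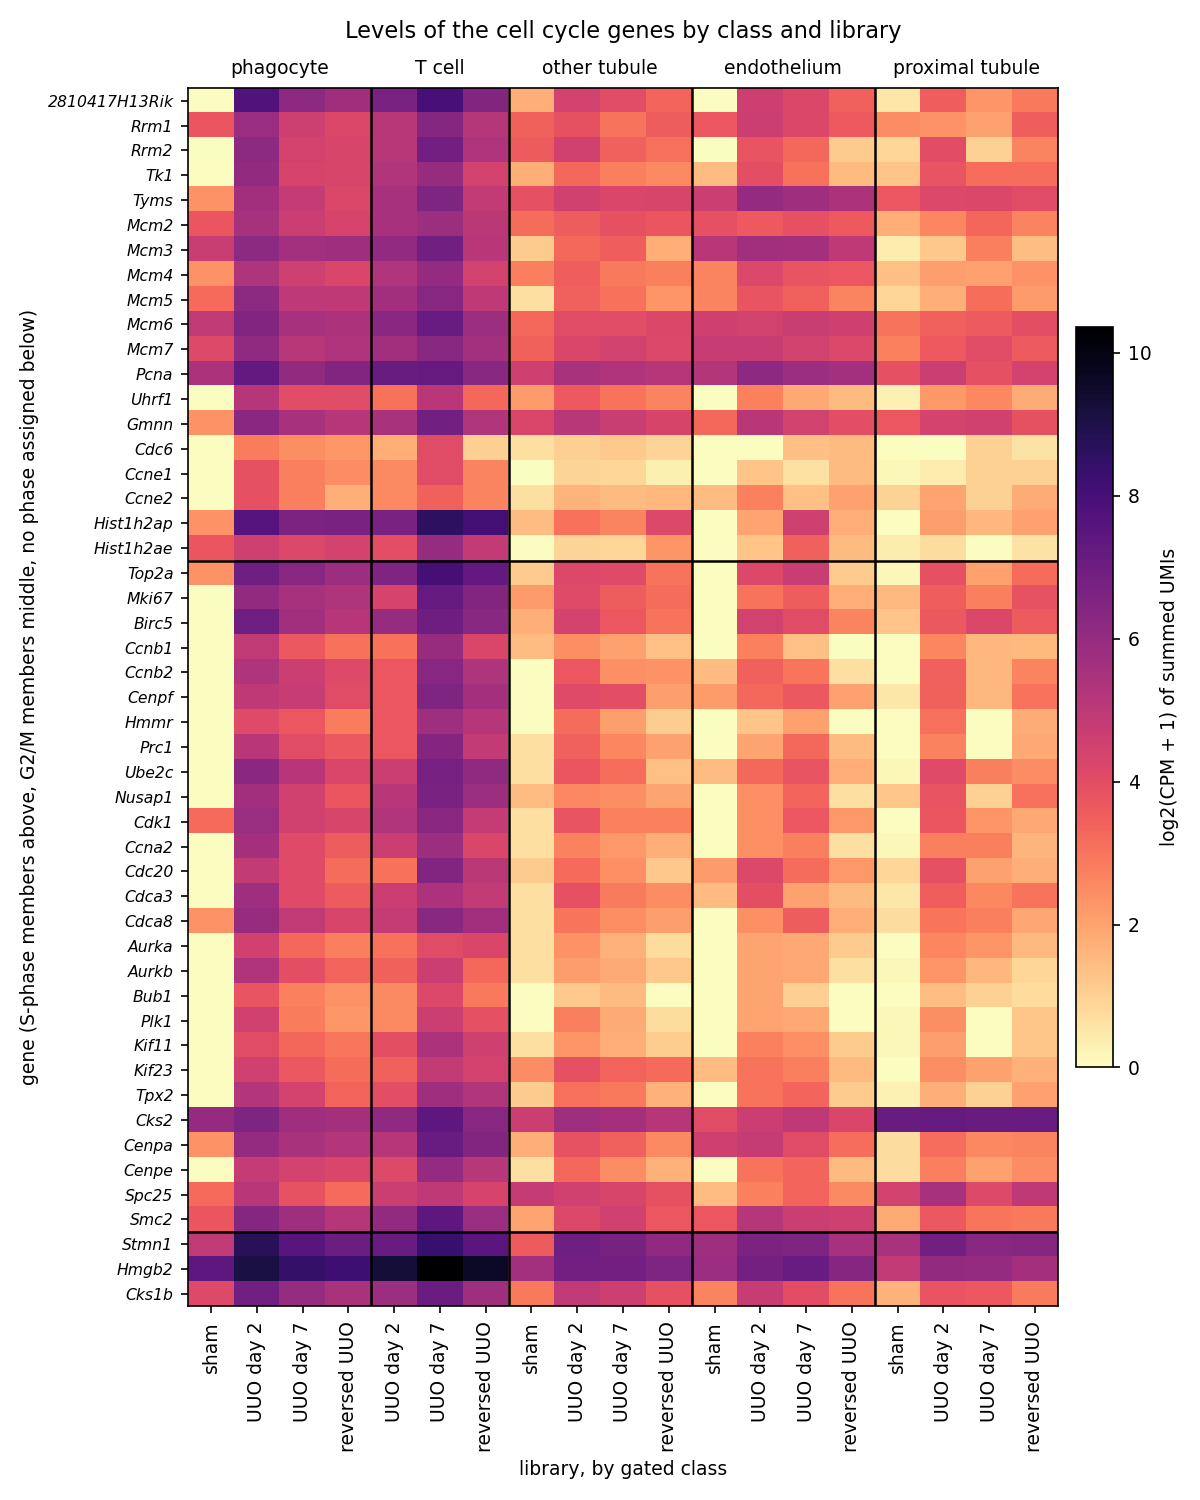
Heat map of the 49 genes (vertical, grouped by phase) in 5 cell classes and their libraries (horizontal), coloured by log2 of CPM + 1. Darker colours are higher levels: phagocyte columns are darkest on day 2, T cell columns on day 7, and Cks2 stays dark across all 4 proximal tubule columns (137 to 147 CPM).

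All 49 genes had their highest level on day 2 in phagocytes taken as 1 class, as did 27.8% of all 12160 genes with at least 30 UMIs. From day 2 to day 7 all 49 were lower, against 44.9% of all genes, and 26 of 49 were lower by at least 1 on the log2 scale, taken as log2 of CPM + 1. The added 1 CPM makes differences of low genes look smaller. Among all 11759 genes with at least 30 UMIs, the share lower by that much was 2.59%. The phases did not separate here: the S-phase median was -1.02 and the G2/M median -1.03, against 0.07 for all genes. Rrm2 (-1.80) and Plk1 (-1.71) had the lowest log2 ratios and Cenpf (-0.20) the highest. Macrophages, 217 of 531 phagocytes on day 2 and 1681 of 2298 on day 7, had all 49 lower (S-phase and G2/M medians -1.62 and -1.86), but the other subclasses did not. In type 2 dendritic cells 18 of 19 S-phase and 16 of 27 G2/M members were lower (medians -0.70 and -0.16), and in Ly6c2 monocytes 9 and 12 (medians 0.21 and 0.26). In type 1 dendritic cells, 22 on day 2, 2 of 19 S-phase members and no G2/M member were lower (medians 0.72 and 1.86). Of all genes with at least 30 UMIs, 47.8% were lower in macrophages, 46% in type 2 dendritic cells, 41% in Ly6c2 monocytes and 41% in type 1 dendritic cells, with medians of 0.04, 0.05, 0.10 and 0.10. In that order 49, 45, 15 and 40 members had that many UMIs, of which 49, 34, 4 and 2 were lower, so the monocyte values rest on few genes. That proliferation genes were lower on day 7 was known when the list was drawn up, so this count is no independent evidence.

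From day 7 to reversal all 27 G2/M members were lower in phagocytes, with a median of -0.54, and 13 of 19 S-phase members, with a median of -0.12 against -0.03 for all genes, of which 54.5% were lower. The counting intervals of the genes nearest to these medians overlapped, at -1.04 to -0.15 (Ccna2) and -0.48 to 0.21 (Rrm2). Subclasses differed. In macrophages 18 of 19 S-phase and 27 of 27 G2/M members were lower (medians -0.50 and -0.79), and in type 1 dendritic cells 13 and 25 (medians -0.54 and -0.53). In type 2 dendritic cells 4 of 19 and 25 of 27 were lower (medians 0.42 and -0.57), and in Ly6c2 monocytes 3 and 11 (medians 0.56 and 0.02). Of all genes with at least 30 UMIs, 55.2% were lower in macrophages, 60.2% in type 1 dendritic cells, 56% in type 2 dendritic cells and 52.3% in Ly6c2 monocytes. In that order 49, 43, 44 and 10 members had that many UMIs, of which 48, 36, 29 and 1 were lower. The mixed S-phase result of all phagocytes was thus not that of macrophages. Only 2 of 49 genes were lower by at least 1, Ccne2 (-1.06) and Tpx2 (-1.0), a spindle assembly protein, against a background of 0.886% of 11850 genes. The S-phase members above 0 were Pcna (0.43), Mcm7 (0.23), Hist1h2ae (0.22), Hist1h2ap (0.07), Mcm3 (0.05) and Uhrf1 (0.01). Of these, only the Pcna intervals were shown above not to overlap. Lower G2/M members included the proteolysis enzyme Ube2c (-0.88), the kinetochore checkpoint target Cdc20 (-0.92) and the spindle-associated protein Hmmr (-0.89). Another choice of scaling (TMM) shifts every phagocyte ratio of reversed over day 7 by 0.04, which would take Tpx2 above -1. It shifts those of day 2 over sham by 0.11 and those of day 7 over day 2 by -0.08.

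The same levels can come from many cells with few molecules or few cells with many, so cells were counted. Each cell was thinned to 1000 UMIs at random and called member-positive if at least 2 of them belonged to the genes counted. No kept cell had fewer than 1000 UMIs. With all 49 genes the positive share of phagocytes was 13.6% in sham, 33.1% on day 2, 22.5% on day 7, then 17.3% in the reversed library, but neutrophils also gave 29.2%, 29.4% and 19% on day 2, day 7 and in the reversed library. In neutrophils Hmgb2 stood at 418 to 538 CPM and Cks2 at 177 to 277 CPM. Shares below therefore use the 45 phase members without Cks2, Stmn1, Hmgb2 and Cks1b, a change made after these values were seen. A positive cell carries these RNAs and was not shown to divide.

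By the 45 genes, 151 of 531 day 2 phagocytes were positive, 28.4% (24.6 to 32.5). The share was 14.6% on day 7 (13.2 to 16.1, 336 cells), 11.5% in the reversed library (9.04 to 14.3, 70 cells) and 3.03% in sham (0.369 to 10.5, 2 cells). Neutrophils gave 4.17% on day 2 (1 of 24, 0.105 to 21.1), 3.92% on day 7 (2 of 51, 0.478 to 13.5) and 0 of 21 in the reversed library, which allows a share of up to 14.3% by 3 counts (exact upper limit 16.1%). Day 2 phagocytes lay above the neutrophil interval, day 7 phagocytes overlapped it by a margin under 1 percentage point, and the reversed value lay inside it. The neutrophil classes are small, so a larger class of each library, thinned alike, was set beside them: other tubule cells gave 7.70% on day 2 (5.74 to 10.1), 5.37% on day 7 (3.65 to 7.57) and 1.78% in the reversed library (0.858 to 3.25). All 3 phagocyte intervals lay above these. Median depths were 10076 and 3690 UMIs for day 2 phagocytes and neutrophils, and 6566 and 3453 on day 7. Without thinning the phagocyte shares were 16.7%, 76.1%, 62.3% and 53.7%. Positive phagocytes were deeper than the others: 15115 against 9223.5 median UMIs on day 2, 8021.5 against 6351.5 on day 7 and 9002 against 6652 in the reversed library. Their median doublet scores were 0.0466 against 0.0420 on day 2, 0.0389 against 0.0309 on day 7 and 0.0492 against 0.0360 in the reversed library. Among removed doublets 21.3%, 10.3% and 9.89% were positive in these libraries, against 12.1%, 12.2% and 5.69% of all kept cells. The part of depth and of doublets in these shares was not tested.

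Counting only the 24 G2/M members apart from Cks2, Spc25 and Smc2, 13.2% of day 2 phagocytes were positive (70 cells), 5.70% on day 7 (131 cells) and 4.75% in the reversed library (29 cells). This list of 24 was not set in advance either. No sham phagocyte of 66 was positive, which allows a share of up to 4.55% by 3 counts (exact upper limit 5.44%). Of neutrophils 1 of 24 was positive on day 2 (4.17%, 0.105 to 21.1) and none of 51 on day 7 (exact upper limit 6.98%) or of 21 in the reversed library. The day 2, day 7 and reversed phagocyte values, with intervals of 10.4 to 16.4, 4.79 to 6.73 and 3.20 to 6.75, lay inside what these few neutrophils allow. In other tubule cells of the same libraries 18 of 623 (2.89%, 1.72 to 4.53), 11 of 559 (1.97%, 0.986 to 3.49) and 2 of 561 (0.357%, 0.0432 to 1.28) were positive for these genes. In endothelium 4 of 451 were positive on day 7 (0.887%, 0.242 to 2.26) and none of 354 in the reversed library (exact upper limit 1.04%). The phagocyte intervals lay above each of these without overlap.

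**Figure D2:**
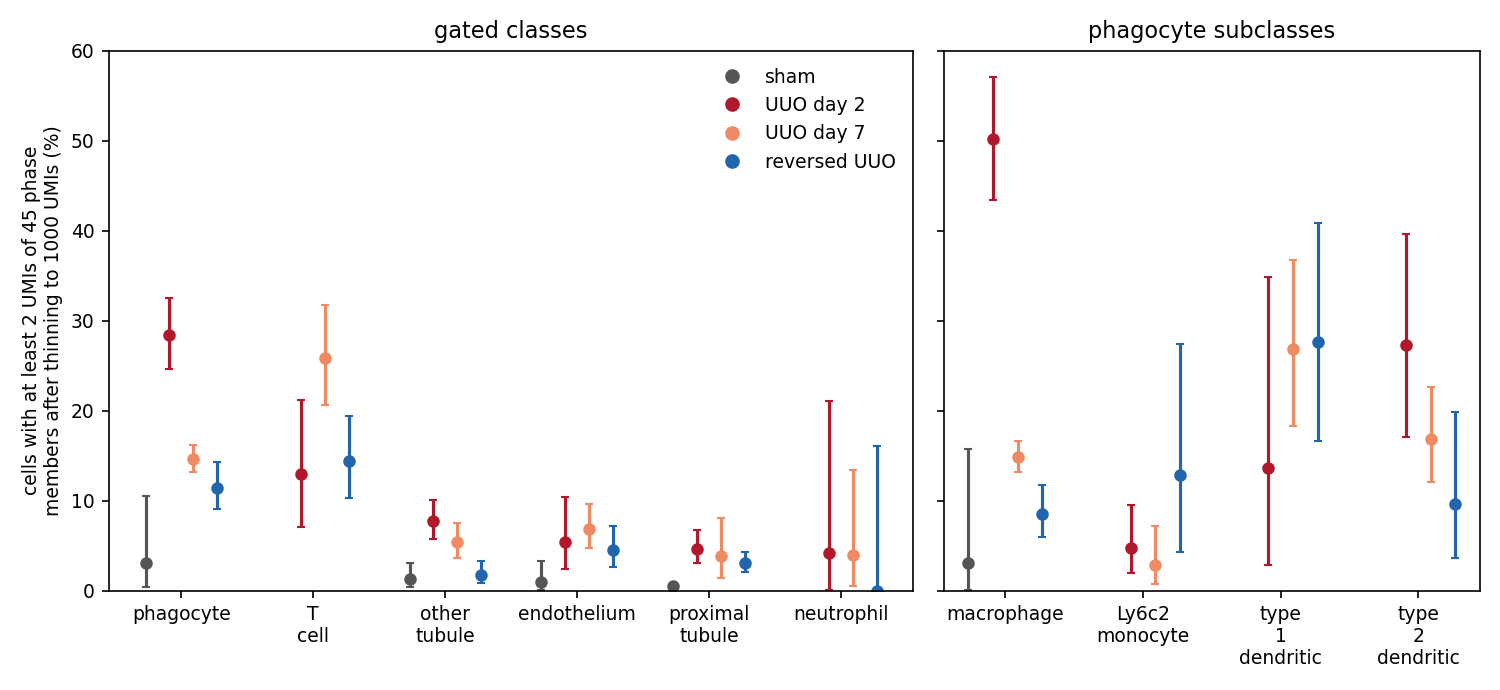
Share of cells (percent, vertical) with at least 2 UMIs of the 45 genes among 1000, for cell classes (left) and phagocyte subclasses (right) in each library (horizontal), with exact 95% intervals as bars. Macrophages reach 50.2% on day 2 while T cells are at 25.9% on day 7, and neutrophils stay at 4.17% or below with wide intervals.

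Phagocyte subclasses differed in the order of their time points. Macrophages were 50.2% positive on day 2 (109 of 217 cells, 43.4 to 57.1), 14.8% on day 7 (13.1 to 16.6) and 8.52% in the reversed library (5.97 to 11.7), and none of these 3 intervals overlapped. Their median depth was 12543, 6005 and 6225 UMIs. Ly6c2 monocytes, the class nearest to blood monocytes, were at 4.76% of 147 cells on day 2 (1.94 to 9.57), 2.88% of 139 on day 7 and 12.8% of 39 in the reversed library (5 cells, 4.30 to 27.4), with overlapping intervals. Type 1 dendritic cells, which present antigen to CD8 T cells, were at 13.6% on day 2 (3 of 22 cells, 2.91 to 34.9), 26.8% on day 7 (97 cells, 18.3 to 36.8) and 27.6% in the reversed library (58 cells, 16.7 to 40.9). Type 2 dendritic cells were at 27.3% of 66 (17.0 to 39.6), 16.9% of 213 (12.1 to 22.6) and 9.68% of 62 (3.63 to 19.9). The reversed library thus held a higher share in type 1 dendritic cells than in macrophages, with intervals that did not overlap.

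Single genes were read in the subclasses too. Ccnb2 in type 1 dendritic cells was at 6.88, 62.2 and 74.5 CPM on day 2, day 7 and in the reversed library, and in type 2 dendritic cells at 52.3, 43.6 and 11.2 CPM. Mki67 in type 1 dendritic cells was at 27.5, 102 and 80.1 CPM. Top2a in Ly6c2 monocytes was at 8.21, 39.1 and 18.4 CPM, from 10, 36 and 5 UMIs, and so was highest on day 7, where the positive share of these cells was lowest. Type 1 dendritic cells were low for both mitotic genes on day 2, from 2 and 8 UMIs in 22 cells.

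Between day 2 and day 7 T cells took the opposite course from macrophages and from phagocytes as a whole, and the same course as the few type 1 dendritic cells. Top2a was at 91.3 CPM on day 2 (64.6 to 125), 264 on day 7 (235 to 295) and 153 in the reversed library (129 to 180), and none of the 3 intervals overlapped. Mki67 was at 19.2 CPM on day 2 (8.29 to 37.9), 150 on day 7 (128 to 174) and 89.8 in the reversed library (71.6 to 111), also without overlap. Cdc20, which activates the complex that starts anaphase, was at 7.20, 88.7 and 32.1 CPM. Pcna was at 134, 144 and 78.1 CPM, so that day 2 (102 to 175) and day 7 (123 to 168) overlapped while reversal (61.2 to 98.2) was lower. The sham library had 16 T cells, of which 5 were positive, and 5 cells held 94.1% of their phase UMIs; its values are not compared.

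Of the 49 genes, all were higher on day 7 than on day 2 in T cells, against 67.9% of all genes with at least 30 UMIs. Of the 44 with at least 30 UMIs, 32 were higher by at least 1 on the log2 scale, against 10.7% of all 5730 genes with that many UMIs, whose median was 0.23. Among the 44, the 25 G2/M members had a median of 1.53 with Cdc20 highest (3.45), and the 16 S-phase members a median of 0.97 with Pcna lowest (0.10). Over all 49 genes 36 were higher by at least 1, and the medians of all 27 G2/M and all 19 S-phase members were 1.53 and 1.04. The share of 10.7% is not the background of this unfiltered count. With 1 UMI as the filter the background is larger, and it is given with the processing alternatives below. TMM scaling shifts these T cell ratios by -0.18, which would put Pcna below 0. From day 7 to reversal 48 of 49 were lower, against 51% of all genes with at least 30 UMIs, and only the mitotic kinase Aurka was higher (0.20, from 18 and 17 UMIs). Among the 45 members with at least 30 UMIs, 21 were lower by at least 1, against 2.97% of 6866 genes. Among these 45 the S-phase members had a median of -1.41 and the G2/M members a median of -0.80, and all genes tested had a median of -0.01. The counting intervals of the genes nearest to the phase medians overlapped, at -2.29 to -0.75 (Tk1) and -1.08 to -0.49 (Top2a).

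The positive share of T cells was 13% on day 2 (7.11 to 21.2), 25.9% on day 7 (20.6 to 31.7, 66 of 255 cells) and 14.5% in the reversed library (10.3 to 19.4). The day 7 interval overlapped that of day 2 and not the reversed one, and it was above the neutrophil interval of that library. Unthinned shares were 50%, 65.1% and 47.4%. On day 2 and in the reversed library 5 cells held 71.8% and 66.8% of the phase UMIs of T cells, against 25.2% on day 7, so those levels rest on few cells. Positive T cells of day 7 had a median doublet score of 0.0212 against 0.00783 in the others, and 5361.5 against 3400 median UMIs, and the part of either was not tested. Phagocyte markers took a median 0.257%, 0.838% and 0.353% of T cell UMIs on day 2, day 7 and in the reversed library, and were thus highest in the same library as the cell cycle genes. The part of phagocyte RNA in the T cell values was not tested.

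**Figure D3:**
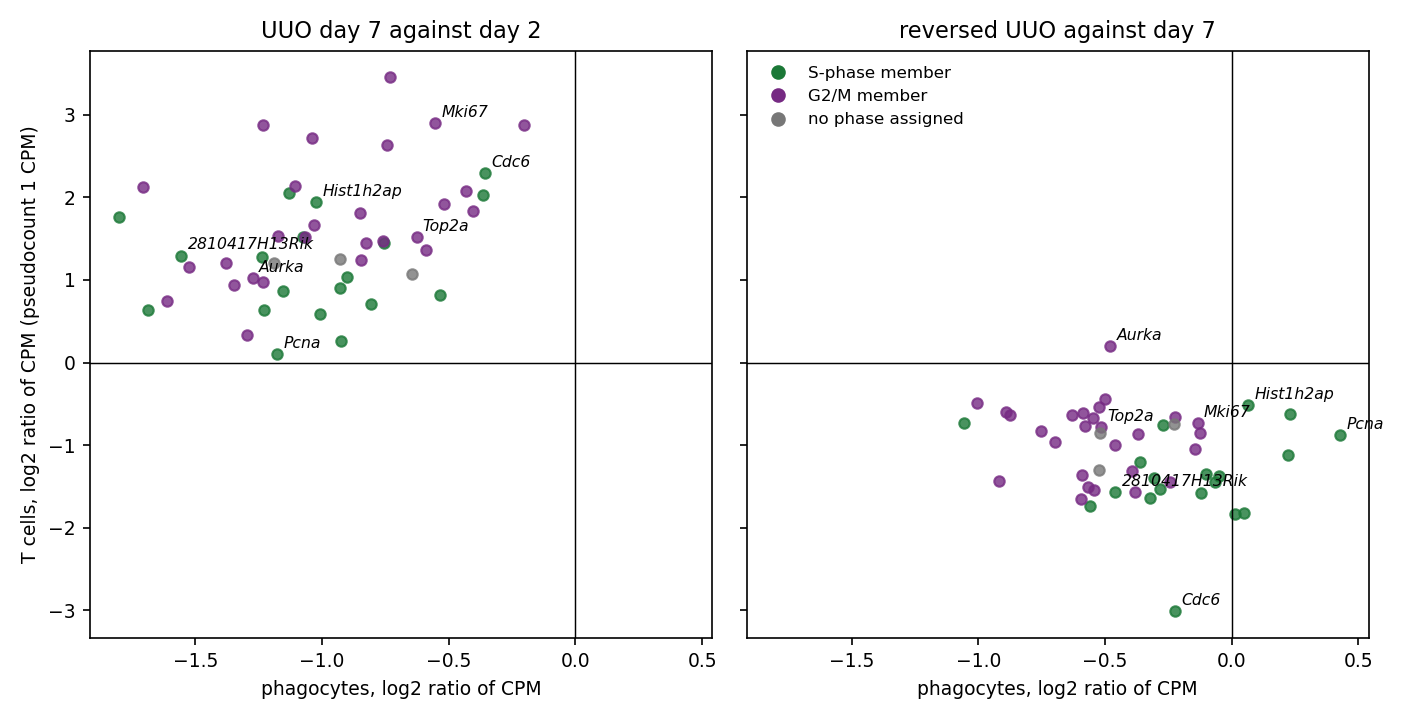
Log2 ratio of CPM + 1 of each gene in phagocytes (horizontal) against T cells (vertical), for day 7 over day 2 (left) and reversed over day 7 (right), coloured by phase. On the left every gene lies below 0 in phagocytes and above 0 in T cells. On the right the T cell median of members with at least 30 UMIs is -1.41 for S-phase and -0.80 for G2/M genes. Single genes of the phases overlap there, such as Mcm7 (-0.63) and Ccnb1 (-1.65).

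The balance of S-phase and G2/M UMIs differed between classes and times. In phagocytes the S-phase members held 51.2% of phase UMIs on day 2 (50.4 to 52.0), 48.0% on day 7 (47.3 to 48.6) and 55.5% in the reversed library (54.2 to 56.9). Several UMIs come from 1 cell, so these intervals are too narrow. With every cell given equal weight the shares were 56.4%, 49.8% and 57.3%, so that day 2 came close to the reversed value. In T cells the S-phase share was 56.7% on day 2, 46.5% on day 7 and 42.3% in the reversed library. Phagocytes thus had their highest S-phase share, and T cells their lowest, in the reversed library, among the obstructed and reversed libraries. Histones held 34.7% of the S-phase UMIs of reversed T cells. Macrophages were at 50.5%, 51.5% and 59.4% on day 2, day 7 and in the reversed library, type 1 dendritic cells at 57.5%, 42.9% and 44.5%, type 2 dendritic cells at 51.4%, 40.1% and 58.6%, and Ly6c2 monocytes at 56.4%, 53.3% and 60.4%, the last from 174 S-phase and 114 G2/M UMIs. Of these 4 subclasses, type 1 dendritic cells had the highest of their 3 values on day 2 and the other 3 subclasses in the reversed library. Without histones Ly6c2 monocytes were at 52.6% on day 2 and 50.6% in the reversed library, so their order did not hold. On day 2, 5 type 1 dendritic cells held 82.5% of the phase UMIs of their subclass. In the reversed library 5 cells held 80.2% in Ly6c2 monocytes and 78.6% in type 2 dendritic cells.

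Cell by cell, phagocytes with at least 10 phase UMIs leaned to either phase. There were 167 such cells on day 2, of which 70 had over 75% S-phase UMIs and 17 under 25%. On day 7 they numbered 293, with 99 and 50 at the extremes, and in the reversed library 76, with 37 and 11. Each gene was then compared between cells leaning to S (over 50% of the phase UMIs, that gene left out) and cells leaning to G2/M. All 27 G2/M members were lower in S-leaning cells in all 3 libraries, against 20.5% of 6351 genes outside the 49 with at least 100 UMIs. Of 40 further G2/M genes outside the 49, such as Smc4, 39 were lower in all 3. The medians of the 27 G2/M members over the libraries ran from -1.0 on the log2 scale for Smc2, a condensin subunit, to -3.96 for Ccnb2. Cdc20 stood at -3.91, -4.55 and -3.84 on day 2, day 7 and in the reversed library, and Top2a at -1.42, -1.57 and -1.53.

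Of the 19 S-phase members 13 were higher in S-leaning cells in all 3 libraries, as were 26 of 36 further S-phase genes, against 17.7% of those 6351 genes. Mcm6 had 228 CPM in S-leaning against 59.1 in G2/M-leaning cells on day 2, 197 against 47.2 on day 7 and 171 against 36.7 in the reversed library. Ccne2 had log2 ratios of 3.19, 1.76 and 4.02, and Pcna of 1.21, 0.96 and 1.01. The replication histone gene Hist1h2ap was at 227 CPM in S-leaning against 820 in G2/M-leaning cells on day 2, 167 against 905 on day 7 and 75.2 against 1289 in the reversed library. Hist1h2ae had log2 ratios of -1.88, -2.23 and -0.80, and 2810417H13Rik of -0.91, -0.80 and -0.72. These 3 genes, filed under S phase, went with G2/M genes in every library. Droplet reads are primed on poly(A) tails, which most replication histone mRNAs lack, and the part of this in the histone values was not tested. Rrm1, Rrm2 and Tk1 changed sign between libraries, the last at -0.24, -0.22 and 0.27.

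With cells over 75% set against cells under 25%, Hist1h2ap had a median log2 ratio of -5.51, Hist1h2ae of -4.20 and 2810417H13Rik of -1.72. In day 7 T cells Mcm6 was at 411 CPM in S-leaning against 109 in G2/M-leaning cells, and Hist1h2ap at 885 against 1321. There 2810417H13Rik had a log2 ratio of 0.15, so its lean toward G2/M in phagocytes was not seen. Stmn1, without a phase, was lower in S-leaning phagocytes in all 3 libraries (median -0.73) and higher in S-leaning T cells of day 7 (0.55).

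**Figure D4:**
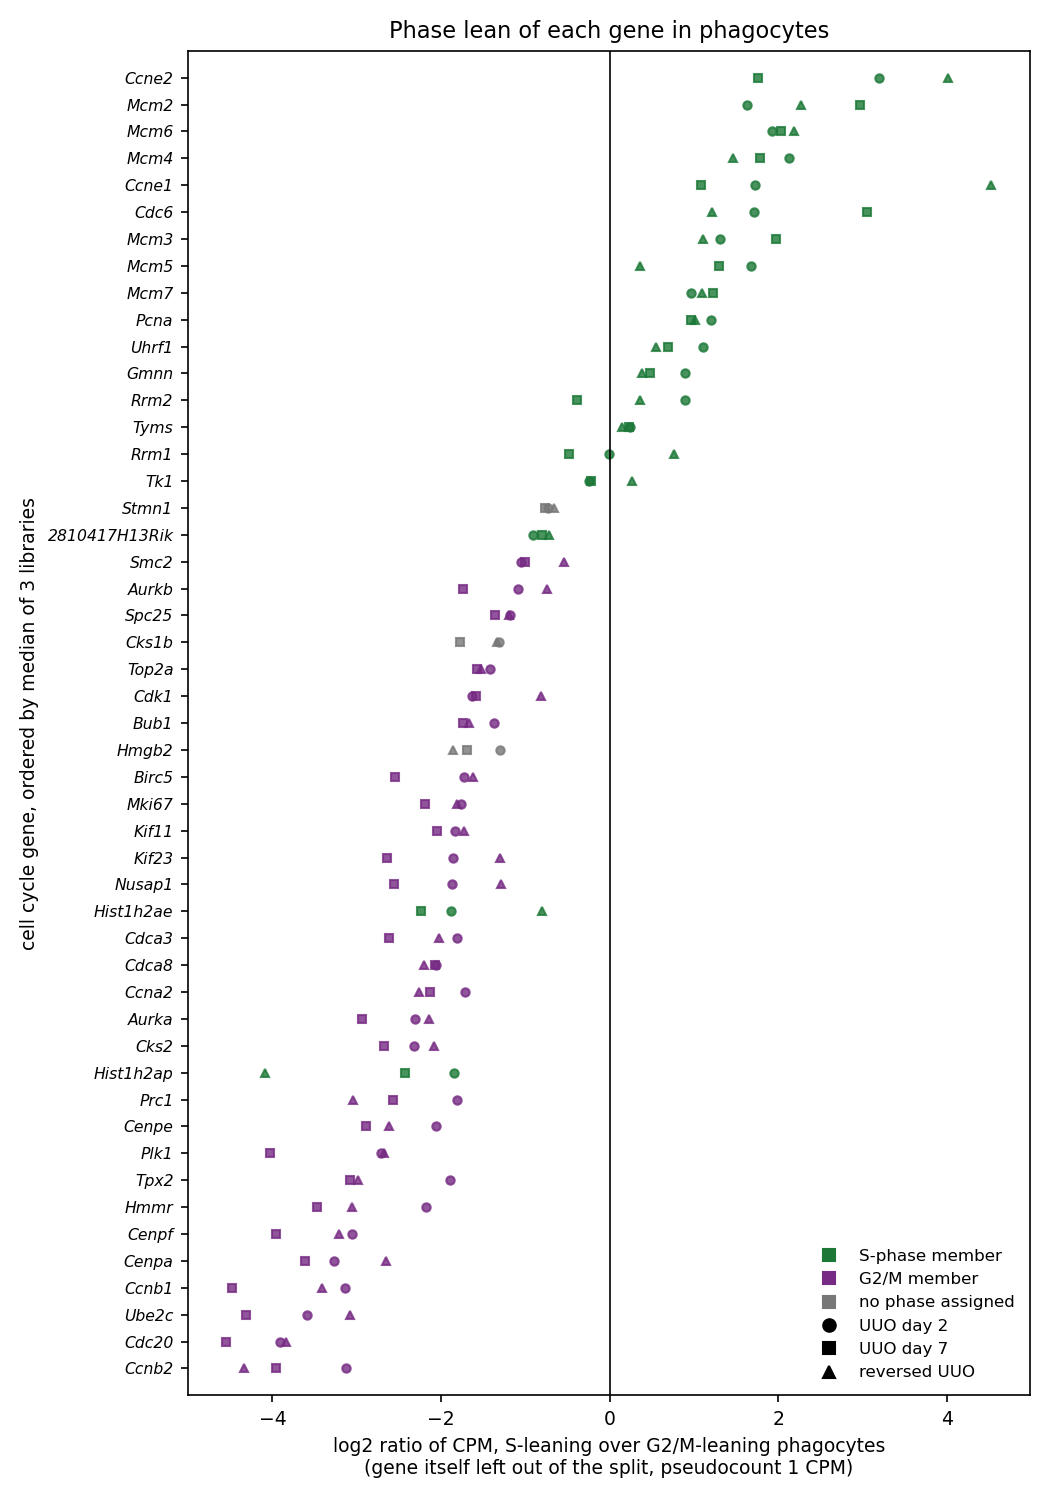
Log2 ratio of CPM in S-leaning over G2/M-leaning phagocytes (horizontal) for each gene (vertical), 1 point per library with at least 10 phase UMIs per cell. All 27 G2/M genes lie left of 0, while Hist1h2ap, Hist1h2ae and 2810417H13Rik are the S-phase genes that lie there in all 3 libraries.

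The Smart-seq2 wells gave another view of the lean, as presence of a gene by at least 10 reads. Of 768 wells 379 had at least 100000 reads. Csf1r, a macrophage receptor gene, was present in 96.0% of them and the proximal tubule gene Lrp2 in 3.69%. Their time points are not used here. There were 66 wells with at least 8 phase members. Among 14 S-phase members seen in at least 20 wells, 12 were present more often in S-leaning wells, and the exceptions were 2810417H13Rik (58.1% against 68.2% of wells) and Rrm1 (53.5% against 71.4%). All 21 G2/M members with 20 wells were present more often in G2/M-leaning wells, with Smc2 at 53.5% against 54.5%. The 3 members without a phase were also present more often there. No share over all genes is given for these well counts, so a lean common to all genes cannot be seen. Cdc20 was present in 4.55% of S-leaning against 75% of G2/M-leaning wells, and Mcm7 in 72.7% against 13.6%. Hist1h2ap was present in no well. Reads of wells carry no molecular identifiers.

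Next, the share of each gene's UMIs that lay in positive cells was taken, with positivity called on the phase members, Cks2 included and the gene itself left out. In phagocytes a median 16.5% of cells were positive in this way, holding 22.6% of all UMIs. The G2/M members had a median of 87.7% of their UMIs in those cells, from 61.9% (Cks2) to 96.3% (Nusap1, a spindle protein). The S-phase members had a median of 69.2%, from 49.5% (Mcm3) to 92.9% (Hist1h2ap). Pcna (51.2%) and Mcm2 (50.4%) thus had near as many UMIs outside positive cells as inside, while 2810417H13Rik (92.4%) and Top2a (89.6%) did not. By library, Pcna had 71.7% on day 2, 38.9% on day 7 and 40.6% in the reversed library, and Top2a 98.1%, 85.9% and 84.5%. The positive cells themselves held 38.0%, 17.7% and 14.0% of all phagocyte UMIs in the call for Pcna, and 39.3%, 18.6% and 15.5% in that for Top2a, so both values were highest on day 2. In T cells the medians were 95.2% for G2/M and 78.9% for S-phase members, where a median 19.8% of cells were positive, holding 28.7% of all UMIs.

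Proximal tubule cells, the bulk of the kidney's reabsorbing epithelium, carried little mitotic RNA in sham, Cks2 and Spc25 apart. Of 2996 sham cells none was positive for the 24 mitotic genes, which allows a share of up to 0.100% by 3 counts (exact upper limit 0.123%). The genes left out of the 24 had the most UMIs of all G2/M members in these sham cells (Cks2 1317, Spc25 206 and Smc2 25). The low sham share thus depends in part on which genes were counted. On day 2 the share was 1.95% (11 of 563, 0.979 to 3.47), on day 7 0.633% (1 of 158) and in the reversed library 1.14% (12 of 1056, 0.589 to 1.98). Day 2 and reversed intervals lay above the sham limit but inside those of neutrophils. By the 45 genes the shares were 0.567%, 4.62%, 3.80% and 3.03%, with 6 cells on day 7. Those of day 2 to reversal lay inside the neutrophil intervals, which rest on 24, 51 and 21 cells. Unthinned they were 4.91%, 26.5%, 36.7% and 22.8%. Phagocyte markers took a median 0%, 0.160%, 0.729% and 0.248% of proximal tubule UMIs in the 4 libraries, and the part of phagocyte RNA in these levels was not tested.

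Top2a in proximal tubule was at 0.104 CPM in sham (1 UMI), 13.9 on day 2 (10.1 to 18.8), 2.96 on day 7 (3 UMIs) and 8.15 in the reversed library (6.03 to 10.8). Ccnb2 was at 0, 10.0, 1.97 and 5.32 CPM, at least 32.2-fold above the sham limit on day 2 and at least 17.1-fold in the reversed library. Cdk1, the kinase that drives mitosis, was at 0, 12.3, 3.94 and 2.66 CPM, at least 39.5-fold and 8.55-fold above it. Day 2 was the highest library for 23 of 27 G2/M and 7 of 19 S-phase members, against 24.3% of all 11079 genes with at least 30 UMIs. Of the S-phase members 8 were highest on day 7, against 50.7% of all genes, and 4 in the reversed library, against 16.3%. Of the 49 members 39 had at least 30 UMIs, and 18 of 21 G2/M and 6 of 15 S-phase members among these were highest on day 2. The mitotic RNA sat in few cells. With positivity called without Cks2, 71 of 96 Top2a UMIs came from 80 of 4773 cells, and all 33 Prc1 UMIs (Prc1 bundles spindle microtubules in cytokinesis) from 81 cells. With Cks2 in the call, 72 Top2a UMIs came from 178 cells. Day 7 rests on 158 cells.

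Cks2 behaved otherwise in proximal tubule. It was at 137 CPM in sham (129 to 144), 147 on day 2 (133 to 161), 137 on day 7 (115 to 162), then 138 in the reversed library (129 to 148), from 1317, 453, 139 and 832 UMIs. All 4 intervals overlapped, and TMM scaling, which shifts day 2 over sham by -0.36, would turn its log2 ratio of 0.10 below 0. Only 129 of its 2741 UMIs, 4.71% (3.94 to 5.57), lay in the positive cells, which held 2.37% of all UMIs. In phagocytes the value was 61.9%, with 22.1% of all UMIs in those cells. Cks2 alone supplied 80.6% of the G2/M UMIs of sham proximal tubule, 37.2% on day 2, 56.5% on day 7 and 49.9% in the reversed library. The S-phase share of proximal tubule, 27.7%, 27.2%, 35.1% and 31.8%, turned to 84.8%, 42.2%, 59.6% and 54.3% without Cks2 and Spc25. Spc25, a kinetochore protein, was at 21.4, 45.6, 16.8 and 30.3 CPM, with 15.0% of its UMIs in cells positive without Cks2. Unlike Cks2, it was higher on day 2 (38.4 to 53.8) than in sham (18.6 to 24.5) without overlap. With Cks2 in the call, positive cells held 1.46%, 39.0%, 0% and 18.7% of Spc25 UMIs in sham, day 2, day 7 and reversed libraries. For Cks2 these shares were 0.987%, 11.7%, 1.44% and 7.33%. The Smart-seq2 wells, in most of which Csf1r was present, bear on Cks2 outside proximal tubule: with at most 2 other phase members, Cks2 was present in 8.27% of 266 wells. Other G2/M members were at most at 4.94% (Cenpa) in such wells, and Top2a at 1.15%, whereas the S-phase members Pcna and Mcm6 were at 14.0% and 7.14%.

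**Figure D5:**
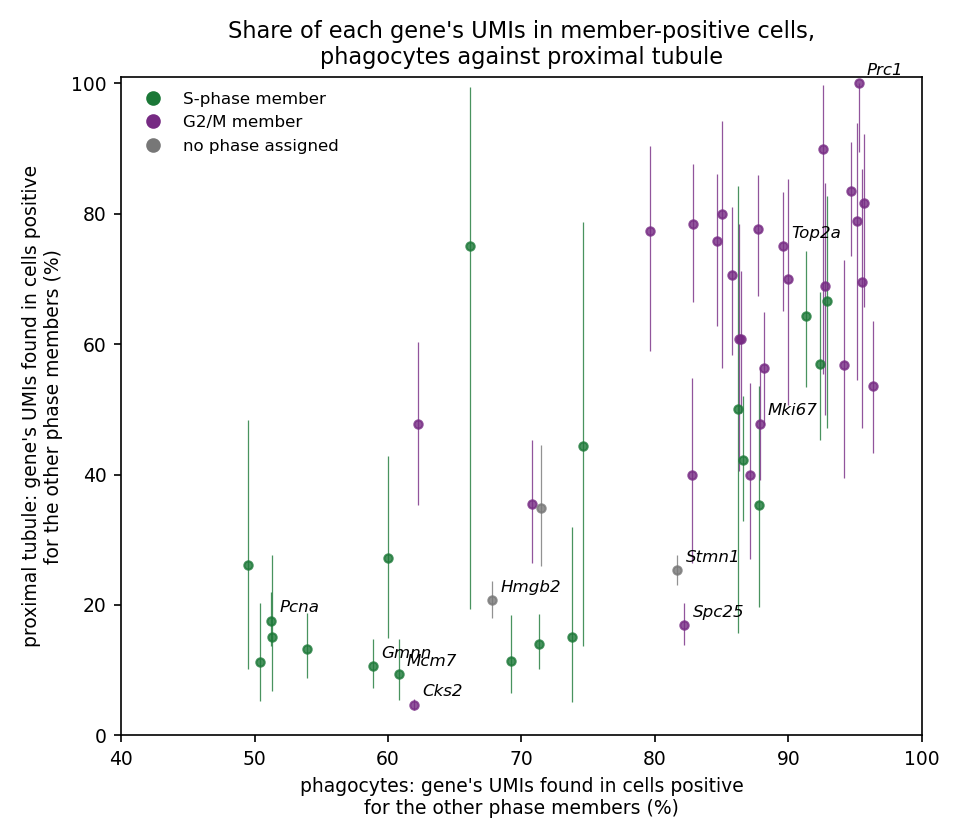
Share of each gene's UMIs (percent) found in positive cells, in phagocytes (horizontal) against proximal tubule (vertical), coloured by phase. Cks2 lies at 61.9% and 4.71%, the latter far below Prc1 (100%) and the G2/M median (69.6%) in proximal tubule. Spc25 (16.8%) and Smc2 (35.5%) also lie below that median, and S-phase genes lie low in proximal tubule (median 26.1%).

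Other tubule cells also carried most mitotic RNA under obstruction. This class joins segments from the loop of Henle to the collecting duct with cells that scored highest on general epithelial markers. Top2a was at 1.15 CPM in sham (2 UMIs), 17.2 on day 2 (14.0 to 21), 16.4 on day 7 (13 to 20.4) and 7.01 in the reversed library (4.79 to 9.89). Day 2 and day 7 overlapped and the reversed level lay below both. Cenpf was at 0, 16.2, 14.6 and 3.29 CPM, at least 9.35-fold above the sham limit on day 2. Hist1h2ap had its highest level in the reversed library, at 1.73, 7.30, 5.26 and 17.1 CPM, with 78 reversed UMIs in 11 cells. From day 7 to reversal 26 of 27 G2/M members were lower, against 51.8% of all genes, with a median of -0.54 over the 18 that had at least 30 UMIs and -0.01 over all genes. Among the 36 members with at least 30 UMIs 5 were lower by at least 1, against 2.04% of 11646 genes. Hist1h2ap (1.53) was the member of the 36 with the opposite change of that size, and Hist1h2ae, below that UMI limit with 4 and 18 UMIs, stood at 1.45.

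The positive share of these cells was 1.31% in sham (0.427 to 3.04), 7.70% on day 2 (48 of 623, 5.74 to 10.1), 5.37% on day 7 (3.65 to 7.57), then 1.78% in the reversed library (0.858 to 3.25). Day 2 and day 7 lay above sham and reversed libraries, though the day 2, day 7 and reversed values were inside the neutrophil intervals, and sham had no neutrophils. Unthinned they were 15.0%, 56.0%, 58.9% and 42.1%. Cells that scored highest on general epithelial markers had 11.9% of 236 on day 2 (8.03 to 16.7), 8.42% of 273 on day 7 and 3.16% of 190 in the reversed library, with 0 of 53 in sham. Their segment scores were not required to be low. Principal cells of the collecting duct had 7 of 61 on day 2, 11.5% (4.74 to 22.2), and none of 65, 64 and 45 in the other libraries. By the 24 mitotic genes, 12 of 236 general epithelial cells were positive on day 2 and 10 of 273 on day 7. Loop of Henle cells had 2 of 225 and 0 of 104, and principal cells 4 of 61 and 0 of 64. Distal and connecting tubule cells had 0 of 27 and 1 of 56, and intercalated cells 0 of 74 and 0 of 62. The class values by these genes thus rest mostly on general epithelial cells. Phagocyte markers took a median 0.577% of the UMIs of other tubule cells on day 7 and 0.0959% on day 2.

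In endothelium mitotic RNA was seen under obstruction, with few UMIs in the reversed library. Top2a was at 0 CPM in sham, 17.1 on day 2 (8.86 to 29.9), 24.9 on day 7 (18.3 to 33.1) and 1.19 in the reversed library (2 UMIs, 0.144 to 4.31). Day 2 and day 7 overlapped and the reversed interval lay below both. Mki67 was at 0, 7.14, 10.6 and 2.38 CPM. Hist1h2ap was at 0, 2.86, 22.8 and 2.38 CPM, so only day 7 stood high. Of 27 G2/M members 13 were highest on day 2 and 14 on day 7, against 21.9% and 21.7% of all 10029 genes with at least 30 UMIs, a limit that 10 of the 27 passed. All 27 had a lower reversed than day 7 level, against 46.6% of all genes, but only 5 of them had at least 30 UMIs in this comparison. The positive shares were 0.913%, 5.41%, 6.87% and 4.52%. Those of day 2 to reversal lay inside the neutrophil intervals, and sham had no neutrophils to compare. Phagocyte markers took a median 0.740% of endothelial UMIs on day 7 against 0.102% on day 2.

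Other cell cycle genes outside the 49 were read from further lists in the same phagocytes. Positive cells, called on the 49 genes, were compared with the other phagocytes of the same library. All 34 further S-phase genes with at least 100 UMIs were higher in positive cells in all 3 libraries (median log2 ratio 2.07), against 28.6% of all 9946 non-member genes with that many UMIs, among them Dut, which clears dUTP (2.43). So were 34 of 35 further G2/M genes (median 3.41), such as the condensin subunit Smc4 (1.99), and the exception was Pttg1, securin (-0.09). G1 cyclins and kinases were mixed, with 7 of 11 higher and 1 lower, and Ccnd2 stood at -0.25 beside Ccnd1 at 0.27. CDK inhibitors and pocket proteins had 3 of 10 higher and 2 lower, with the antiproliferative gene Btg1 at -0.61 and Cdkn1a (p21) at 0.12. Of all 9946 genes 17% were lower in all 3 libraries, and their median was 0.03. Higher by at least 1 were 33 of 34 further S-phase genes, 34 of 35 further G2/M genes, 3 of 11 G1 genes and 2 of 10 inhibitors, against 2.88% of the 9946. The 10 highest non-members were Pbk (4.53), Ncapg (4.44), Neil3 (4.41), Esco2 (4.34), Casc5 (4.25), Sgol1 (4.13), Kif4 (4.03), Ckap2l (3.90), Cdca2 (3.90) and Kif20a (3.82). All of these but Neil3, Esco2 and Casc5 belong to the further G2/M list.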

How the data were processed

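The droplet files hold raw UMI counts per gene and cell as deposited by the authors, and the Smart-seq2 table holds the authors' read counts, by gene and well. Cell Ranger and STAR with GRCm38 (mm10) are named in the submitters' processing notes, without versions or roles. Live cells were sorted with DAPI and made into 10x 3' V2 libraries, per the labels' protocols. These words are repeated for the Smart-seq2 sample, so the preparation of the wells is not given in the sources used here.

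Kept droplet cells had 200 genes or more and no more than 50% mitochondrial UMIs. The highest Scrublet scores (scanpy 1.11.5) were removed at 0.8% per 1000 deposited cells, 47 to 184 cells per library. Classes took the best marker score, of at least 0.15 with a lead of at least 0.05. Counts were summed per class and library and given as CPM. Ratios are log2 of CPM + 1. Shares have exact Clopper-Pearson intervals and levels exact Poisson intervals, at 95%. Where a group was at 0, folds use a limit of 3 UMIs per library. Wells needed 100000 reads, and a gene in a well 10 reads.

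Genes named are the 49, the 3 with most UMIs of further lists (other S, other G2/M, G1 cyclins and kinases, CDK inhibitors and pocket proteins) where given, and the 10 non-members with at least 100 UMIs highest in positive phagocytes. Members and lists were chosen with earlier results of these data known. Scaling alternatives used edgeR 4.0.16 and DESeq2 1.42.0 in R 4.3.3. Tables and figures were made with pandas 2.3.3, matplotlib 3.10.9, anndata 0.12.19, scipy 1.17.1 and numpy 2.4.6 in Python 3.11.15. The computations were tested on simulated data.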

Additional observations from a re-analysis of the deposited data

Results flagged for a closer look

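Between day 2 and day 7 the share of cells positive for the 45 genes moved in opposite directions in different classes. It was 28.4% on day 2 and 14.6% on day 7 in phagocytes, 7.70% and 5.37% in other tubule cells, and 13% and 25.9% in T cells. By the intervals given above, day 2 and day 7 overlapped in other tubule cells and in T cells, and not in phagocytes. The difference between the classes was not tested, since each time point is 1 library. By gene, all 49 members were lower on day 7 in phagocytes as a whole and in macrophages, which were 217 of 531 phagocytes on day 2 and 1681 of 2298 on day 7, and all 49 were higher in T cells. Among all genes with at least 30 UMIs, 44.9% were lower in phagocytes and 47.8% in macrophages, and 67.9% were higher in T cells. In T cells 44 members had that many UMIs. Other phagocyte subclasses went otherwise: 47 of 49 members were higher on day 7 in type 1 dendritic cells, 28 in Ly6c2 monocytes and 12 in type 2 dendritic cells. Of all genes with at least 30 UMIs, 41%, 41% and 46% were lower on day 7 in these 3 subclasses, and 40, 15 and 45 members had that many UMIs. T cells of day 2 numbered 100, and 5 of them held 71.8% of their phase UMIs.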

How the results depend on the processing

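No paired analysis was possible because each time point is 1 library. The phagocyte shares for all 49 genes were recomputed for sham, day 2, day 7 and reversed libraries. Without thinning they were 40.9%, 89.5%, 81.2% and 72.7%, and with 1 UMI as the minimum 39.4%, 58.8%, 52.0% and 42.4%. With a minimum of 3 UMIs they were 3.03%, 25.4%, 11.2% and 9.49%, and with cells thinned to 2000 UMIs the last 3 were 48.6%, 40.4% and 33.2%. With 46 genes, chosen after seeing the data, they were 4.55%, 29.2%, 15.3% and 11.6%. With 45 genes, also chosen after seeing the data, they were 3.03%, 28.4%, 14.6% and 11.5%, and with another random draw 4.55%, 27.1%, 15.6% and 11.9%. Day 2 was above day 7 and day 7 above reversed in each of these. The S-phase share of phagocytes on day 2, day 7 and after reversal was 46.8%, 42.9% and 49.8% without histones, 56.4%, 49.8% and 57.3% with every cell given equal weight, and 53.8%, 50.5% and 58.5% without Cks2 and Spc25, where sham was 84.0%. A stricter gate gave 48.7% on day 7. The phagocyte S-phase median of day 7 over day 2 was -1.14 with DESeq2 size factors, -0.81 with a pseudocount of 10 CPM and -0.83 with every cell given equal weight.

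Across 8 alternatives 6 medians changed sign, 2 of them more than once, and the cause was not tested. In endothelium the G2/M median of day 7 over day 2, -0.052 over the 6 members with at least 30 UMIs and 0.30 over all 27, was 0.56 without doublet removal and 0.29 with equal weight. There the S-phase median of reversed over sham, 0.0062 over 5 members, was -0.063 with a 20% mitochondrial limit and -0.20 with equal weight, and the G2/M median of reversed over sham, 0.54 over 2 members, was -0.069 without doublet removal. In proximal tubule the S-phase median of day 2 over sham, 0.79, was -0.078 with the 20% limit, and that of reversed over day 7, 0.18, was -0.33 with the stricter gate. In other tubule cells the S-phase median of reversed over day 7, -0.24, was 0.025 with the 20% limit. Of the other alternatives for medians 248 kept their value within the spread and 14 moved. For positive shares over all classes 147 alternatives moved the value and 117 did not, and for S-phase shares 38 and 76. Calling positive cells without Cks2, chosen after seeing the data, gave S-phase and G2/M medians of 22.7% and 69.1% of UMIs in positive proximal tubule cells, against 26.1% and 69.6%. With 1 UMI as the filter the background share of T cells was 20.8% for day 7 over day 2 and 6.95% for reversed over day 7. Classes of under 100 cells, such as sham phagocytes and neutrophils, limit what can be compared.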

Other observations

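Fibroblast and mural cells, which make matrix and surround vessels, numbered 77 on day 7 and 9 to 73 in the other libraries. On day 7 9 of them, 11.7%, were positive for the 45 genes and 5, 6.49%, for the 24 mitotic genes. Both values lay within what the neutrophils of that library allow, up to 13.5% and 6.98%. S-phase members held 202 and G2/M members 820 of their phase UMIs, an S-phase share of 19.8%, and 5 cells held 76.4% of those UMIs. Among all positive cells of a library, phagocytes were 57.6% of 262 on day 2, 64.0% of 525 on day 7 and 39.1% of 179 after reversal, where they were 24.6%, 53.5% and 19.4% of all kept cells. In sham 51.5% of 33 positive cells and 79.9% of all kept cells were proximal tubule.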
